A study of Homo sapiens with 2 samples.

Results

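Genes of the WNT pathway itself, from the secreted ligands through their receptors to beta-catenin and its TCF partners, were compared between PIM3_KO and HuH6_WT cells. They were chosen by symbol: WNT, FZD, SFRP and DVL genes by their numbered names, and DKK1 to DKK3, LRP5, LRP6, PORCN, WLS, ROR1, ROR2, RYK, CTNNB1, APC, AXIN1, GSK3A, GSK3B, TCF7L1 and TCF7L2 by name. The deposited table has 62571 rows, and 51 of these symbols took 55 of them alone, 48 with 1 row each. HuH6 is a human hepatoblastoma cell line. PIM3_KO denotes HuH6 cells in which CRISPR/Cas9 was used to knock out PIM3, a serine/threonine survival kinase, and HuH6_WT denotes the unedited line. Both were untreated cultures, and whether the knockout line came from 1 clone is not given in the sources used here. Each group had 1 library of poly(A) RNA, so no value below has a replicate check, no test between the groups was possible, and other differences between the lines cannot be told apart from PIM3 loss. The study concerned the part of PIM3 in tumour growth and stem-like behaviour.

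WNT proteins are lipid-modified secreted ligands that bind Frizzled (FZD) receptors together with LRP5 or LRP6, or with ROR and RYK receptors. Without ligand, a destruction complex of APC, AXIN1 and the GSK3 kinases marks beta-catenin, the product of CTNNB1, for degradation. With ligand, Dishevelled (DVL) proteins disable that complex, and beta-catenin enters the nucleus and acts with TCF factors. Hepatoblastomas commonly carry activating CTNNB1 mutations, and HuH6 cells have one. Other WNT signals bypass beta-catenin and steer cell polarity and movement.

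Values are FPKM, fragments scaled by transcript length and by sequencing depth, which can be compared between genes. The log2 ratio is that of FPKM + 1 in PIM3_KO over HuH6_WT, and a positive value means higher in PIM3_KO. A gene is called measured where its 2 values average 1 FPKM or more. The smallest values imply normalisation totals of about 22200000 reads for PIM3_KO and 28300000 for HuH6_WT, so 3 reads on a 2 kb transcript amount to 0.0750 and 0.0588 FPKM. PIM3 itself stood at 14.05 FPKM in PIM3_KO and 34.2 FPKM in HuH6_WT. The hepatoblastoma surface markers GPC3 (607 FPKM in PIM3_KO and 694 FPKM in HuH6_WT) and EPCAM (1035 and 797 FPKM in the same order) were abundant in both libraries. DLK1, another fetal liver marker, was listed at 0 in both. Over 11 hepatoblast and fetal liver markers with a row of their own, 10 were measured and the summed level was 24160 FPKM in PIM3_KO and 16596 FPKM in HuH6_WT, a ratio of 1.46 that was 1.06 on the TPM scale. Of the 10, 6 were higher in PIM3_KO, AFP, ALB, APOA1 and TTR at least 2-fold, and 4 were lower (KRT8, KRT18, HNF4A and GPC3). The summed ratio hides large differences of single markers. AFP measured 70.1 FPKM in PIM3_KO and 1.19 FPKM in HuH6_WT, ALB 9.18 and 0.520 FPKM, and TTR 2232 and 270 FPKM in the same order. APOA1 was the most abundant, at 12109 FPKM in PIM3_KO and 5201 FPKM in HuH6_WT. Fibroblast markers summed to 19.5 FPKM in PIM3_KO and 22.8 FPKM in HuH6_WT (4 of 8 measured), endothelial markers to 1.34 and 1.98 FPKM (0 of 6, with CDH5, KDR and CLDN5 listed at 0) and leukocyte markers to 7.76 and 3.96 FPKM (2 of 5, with CD2 and MS4A1 listed at 0).

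The pathway core was led by a lower CTNNB1 and by a change of place between a pair of Frizzled receptors. CTNNB1, the most abundant of these genes in both libraries, stood at 118 FPKM in PIM3_KO, against 273 FPKM in HuH6_WT. FZD3 stood at 7.84 FPKM in PIM3_KO, against 2.78 FPKM in HuH6_WT, while its close relative FZD6 stood at 4.33 FPKM against 9.12 FPKM. Of 23 measured genes, CTNNB1 was the 1 at least 2-fold lower and FZD3 the 1 at least 2-fold higher. Over all 11253 measured genes, 4.59% were at least 2-fold lower and 6.89% at least 2-fold higher, so the number of WNT genes past 2-fold was no larger than the background. A log2 ratio below 0 was found for 15 of the 23 (65.2%), against 49% of all measured genes, and their median log2 ratio was -0.29, against 0.01 over all genes.

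**Figure D1:**
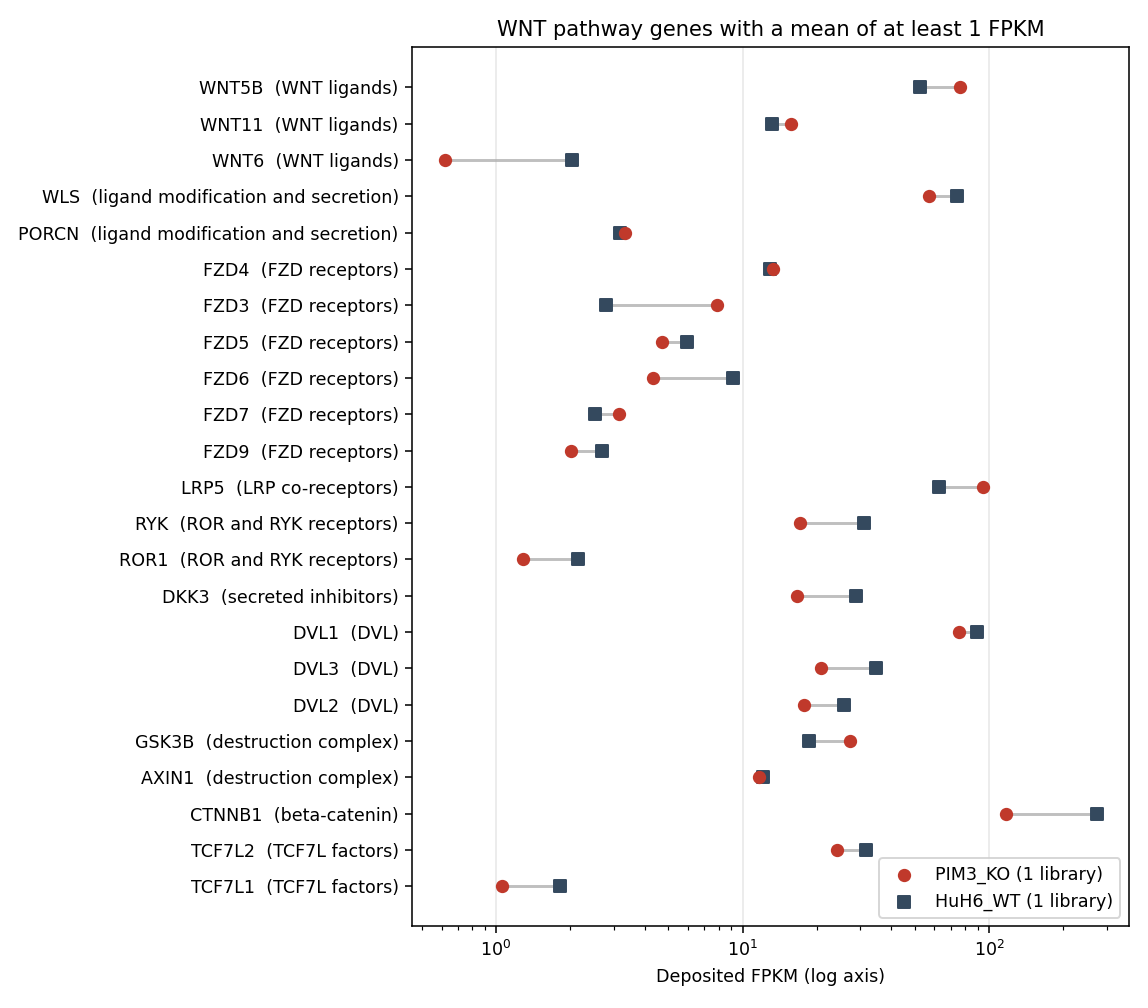
FPKM of the 23 measured WNT pathway genes in PIM3_KO (red circles) and HuH6_WT (dark squares), 1 library each, on a log axis and ordered by role. CTNNB1 lies furthest right in both libraries, at 118 and 273 FPKM, and FZD3 and WNT6 show the widest gaps on the log axis, in opposite directions.

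The scale moved these counts. The deposited values summed to 1086211 FPKM in PIM3_KO and 787250 FPKM in HuH6_WT, and bringing both to 1 total (TPM) moved the median of all genes to -0.40. On that scale 24 of the genes were measured, 20 of them had a log2 ratio below 0, 6 were at least 2-fold lower and 0 at least 2-fold higher. The shares over all genes were then 74.2% below 0, 14.5% at least 2-fold lower and 2.73% at least 2-fold higher. The 6 were CTNNB1, DKK3, DVL3, FZD6, RYK and WNT6. WNT11, PORCN, FZD4 and FZD7 were above 0 on the FPKM scale and below 0 on the TPM scale. Those above 0 on both scales were FZD3, LRP5, WNT5B and GSK3B. Across all coding genes the log2 ratio also went with transcript length, with a median of 0.40 for the shortest 1940 genes and -0.25 for the longest 1938. The median length of the measured WNT genes was 3018 bp, against 3135 bp for coding genes. Yet few were short: from the shortest to the longest of 5 near-equal groups of coding genes, 3, 3, 7, 6 and 4 were WNT genes. After a correction for length, 15 of 23 had a log2 ratio below 0 (background 50.1%), CTNNB1 and WNT6 were at least 2-fold lower (background 4.59%) and FZD3 at least 2-fold higher (background 4.95%). That correction turned the sign of AXIN1 and PORCN, both near 0.

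**Figure D2:**
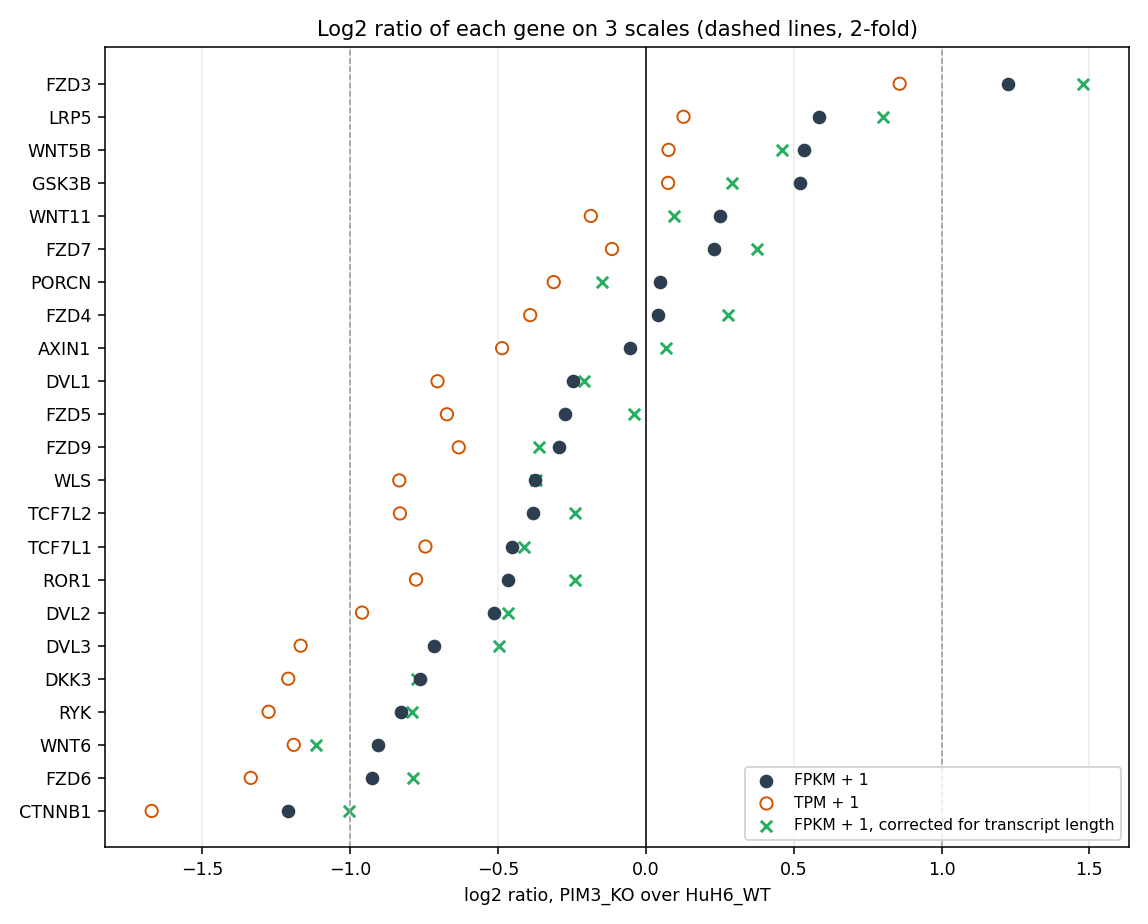
Log2 ratio of PIM3_KO over HuH6_WT for each of the 23 measured genes, from the deposited FPKM + 1 (filled circles), from TPM + 1 (open circles) and after correction for transcript length (crosses), with dashed lines at 2-fold. FZD3 lies highest on all 3 scales, CTNNB1 lies lowest on all but the length-corrected one, where WNT6 is at -1.12, and the TPM values lie to the left of the FPKM values throughout.

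Promoter sequence is shown for CTNNB1 and GSK3B, the substrate and the kinase, whose RNAs differed in opposite directions on the FPKM scale. It is also shown for LRP5, an abundant gene higher in PIM3_KO on that scale. The last sequence is the 1 promoter of a measured gene that held either TCF/LEF form searched, CTTTGAT or CTTTGTT. Each is the 250 bases before a transcription start in RefSeq (GRCh38.p14), 5′ to 3′ on the strand of the gene. They lie at chr3:41199255-41199504 (plus strand) for CTNNB1, chr3:120094448-120094697 (minus strand) for GSK3B, chr11:68312341-68312590 (plus strand) for LRP5 and chr10:113126383-113126632 (plus strand) for a start inside TCF7L2. Capitals mark GC boxes (GGGCGG, either strand) and the TCF/LEF form CTTTGTT, which is the match in the TCF7L2 sequence.
CTNNB1: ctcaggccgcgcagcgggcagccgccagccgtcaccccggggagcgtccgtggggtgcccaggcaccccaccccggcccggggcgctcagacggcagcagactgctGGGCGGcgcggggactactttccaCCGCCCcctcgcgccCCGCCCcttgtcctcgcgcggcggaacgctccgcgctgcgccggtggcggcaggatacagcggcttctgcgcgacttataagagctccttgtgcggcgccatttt
GSK3B: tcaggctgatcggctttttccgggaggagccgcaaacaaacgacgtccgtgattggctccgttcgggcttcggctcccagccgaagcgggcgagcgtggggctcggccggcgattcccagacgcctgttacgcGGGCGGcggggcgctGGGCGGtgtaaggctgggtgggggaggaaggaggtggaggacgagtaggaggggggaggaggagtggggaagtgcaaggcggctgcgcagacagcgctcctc
LRP5: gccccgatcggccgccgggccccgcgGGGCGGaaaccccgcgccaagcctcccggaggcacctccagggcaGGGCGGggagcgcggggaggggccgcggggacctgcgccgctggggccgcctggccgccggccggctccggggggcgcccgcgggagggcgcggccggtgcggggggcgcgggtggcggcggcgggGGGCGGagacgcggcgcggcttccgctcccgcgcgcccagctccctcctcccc
TCF7L2: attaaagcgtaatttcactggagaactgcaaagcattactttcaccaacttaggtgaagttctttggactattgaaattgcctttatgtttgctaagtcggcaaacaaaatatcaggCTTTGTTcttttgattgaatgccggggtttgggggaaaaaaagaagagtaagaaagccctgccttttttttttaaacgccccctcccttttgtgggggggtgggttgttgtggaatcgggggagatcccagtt

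All 3 of the CTNNB1, GSK3B and LRP5 promoters are rich in G and C, at 74.4%, 68.8% and 87.2%, with 3, 2 and 3 GC boxes. From 250 bases before to 50 after each start, RefSeq gave 49 promoters for 41 of these genes. GC boxes were in 37 of the 49 (75.5%), against 45.0% of all 35116 promoters. The 49 include promoters of genes at or near 0 FPKM. Of the 23 promoters that belong to measured genes, 16 held a GC box. The background was not limited to expressed genes. The median GC content was 69.0%, against 58.7% of all. CTTTGTT, on either strand, was in 3 of the 49 (DKK1, TCF7L2 and WNT3), a share of 6.12% against 5.20% of all. For TCF7L2 the match belonged to the start inside the gene. The promoter at its 5′ end (chr10:112949997-112950246) held 5 GC boxes and 0 matches. CTTTGAT was in 0 of the 49, against 2.62% of all. The GC-box promoters thus included both the lower CTNNB1 and, on the FPKM scale, the higher GSK3B and LRP5. On the TPM scale the log2 ratios of GSK3B and LRP5 were nearer 0, at 0.08 and 0.13.

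Among the ligands, WNT5B and WNT11 supplied nearly all of the RNA in both libraries. Both are known mainly for signals that bypass beta-catenin. WNT5B (chromosome 12, 1529891 to 1647243, GENCODE 29 on GRCh38) measured 76.5 FPKM in PIM3_KO and 52.6 FPKM in HuH6_WT, and WNT11 15.8 and 13.1 FPKM in the same order. Their log2 ratios were 0.53 and 0.25, or 0.08 and -0.19 on the TPM scale. WNT5B made up 81.1% of the summed WNT FPKM in PIM3_KO and 76.7% in HuH6_WT, and WNT11 16.7% and 19.1%. The sum itself was 94.4 FPKM in PIM3_KO and 68.5 FPKM in HuH6_WT, a ratio of 1.38 that was 0.998 on the TPM scale.

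The other ligands that could be assessed were scarce, among them those known for signalling through beta-catenin. WNT3 and WNT9B could not be assessed. WNT6 (chromosome 2, 218859821 to 218874233) measured 0.619 FPKM in PIM3_KO and 2.03 FPKM in HuH6_WT, from about 21 and 87 estimated reads. Its FPKM ratio was 0.304, with an exact 95% interval of 0.181 to 0.500 for counting error, and its log2 ratio of -0.91 did not pass 2-fold because 1 FPKM is added to each value. WNT10B went the other way at 1.32 FPKM in PIM3_KO and 0.572 FPKM in HuH6_WT, a ratio of 2.31 (1.48 to 3.59) on about 61 and 34 reads. Its mean was under 1 FPKM, so it is not among the measured genes. The other 13 WNT genes with 1 row, WNT1, WNT2, WNT2B, WNT3A, WNT4, WNT5A, WNT7A, WNT7B, WNT8A, WNT8B, WNT9A, WNT10A and WNT16, were under 0.3 FPKM in both libraries. WNT10A, the neighbour of WNT6 in the genome, was listed at 0 in PIM3_KO and stood at 0.0811 FPKM in HuH6_WT, about 5 reads. WNT3, with 3 rows, and WNT9B, with 2, were at most 0.0114 FPKM in any row, which says nothing of their expression, since ubiquitous genes with several rows were also listed at 0.

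PORCN, the acyltransferase that attaches the lipid to WNT proteins, lay near equality at 3.34 FPKM in PIM3_KO and 3.19 FPKM in HuH6_WT. WLS, which carries lipidated WNT proteins to the cell surface, measured 57.0 FPKM in PIM3_KO and 74.3 FPKM in HuH6_WT, a log2 ratio of -0.38. WNT5B thus stood at 1.34 times the FPKM of WLS in PIM3_KO and 0.708 times in HuH6_WT.

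The Frizzled receptors stood in another order in each library. Their FPKM summed to 37.1 in PIM3_KO and 38.4 in HuH6_WT, a ratio of 0.966 that was 0.7004 on the TPM scale. FZD4, which also binds the ligand norrin, came first in both libraries at 13.3 FPKM in PIM3_KO and 12.9 FPKM in HuH6_WT. FZD3 (chromosome 8, 28494205 to 28574268) was number 2 of 10 in PIM3_KO and number 4 in HuH6_WT, and FZD6 (chromosome 8, 103298433 to 103332866) number 4 in PIM3_KO and number 2 in HuH6_WT. FZD3 and FZD6 are sister receptors best known from planar cell polarity in mice. The FPKM ratio of FZD3 was 2.82 (2.62 to 3.03) on about 2358 and 1066 estimated reads, and that of FZD6 0.475 (0.418 to 0.537) on about 345 and 927. Both intervals cover counting error only. FZD3 was 1.81 times as high as FZD6 in PIM3_KO and 0.305 times in HuH6_WT, a within-library ratio that a common scaling does not touch. The share of FZD3 in the family's FPKM was 21.1% in PIM3_KO and 7.25% in HuH6_WT, and that of FZD6 11.7% and 23.8%.

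The remaining Frizzled genes differed less. FZD5 measured 4.72 FPKM in PIM3_KO and 5.93 FPKM in HuH6_WT. FZD7, the Frizzled most often described in liver cancer, measured 3.14 and 2.53 FPKM in the same order. FZD9 measured 2.01 and 2.69 FPKM. Their log2 ratios of -0.28, 0.23 and -0.29 all lay within the middle range of all genes, whose quartiles were -0.37 and 0.43. FZD1 fell just short of the mean of 1 FPKM, with 0.764 FPKM in PIM3_KO and 1.23 FPKM in HuH6_WT. FZD8 measured 0.527 and 0.763 FPKM, and FZD2 0.401 and 0.423 FPKM. FZD10 had 0.0291 FPKM in PIM3_KO, about 2 reads, and was listed at 0 in HuH6_WT.

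**Figure D3:**
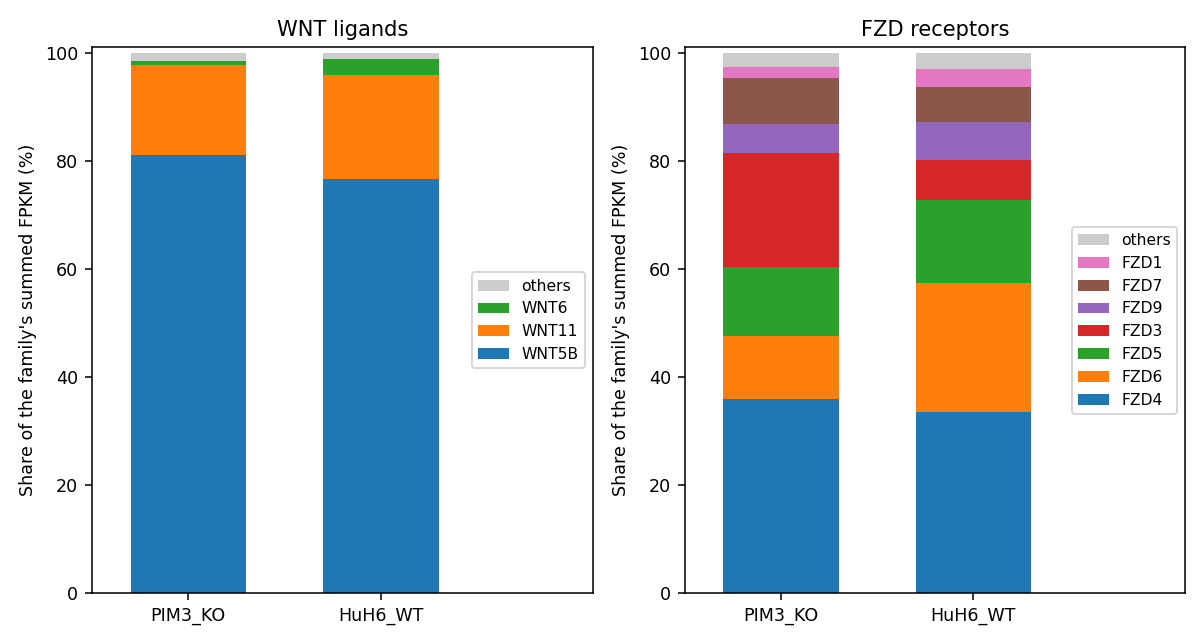
Stacked bars of the share of each gene in the summed FPKM of the WNT ligands (left) and the Frizzled receptors (right), in PIM3_KO and HuH6_WT, 1 library each, with genes under 2% in both libraries pooled as others. WNT5B fills most of the ligand bars, at 81.1% and 76.7%, while FZD3 takes 21.1% of the Frizzled bar in PIM3_KO and 7.25% in HuH6_WT.

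Of the co-receptors, LRP5 was higher in PIM3_KO. LRP5 (chromosome 11, 68312609 to 68449275) measured 94.8 FPKM in PIM3_KO and 62.9 FPKM in HuH6_WT, a ratio of 1.51 (1.47 to 1.55) and a log2 ratio of 0.59, or 0.13 on the TPM scale. LRP6 was listed at 0 in both of its rows in both libraries. The ribosomal protein genes RPL7A and RPS18, which every cell expresses, were also listed at 0 in each of their several rows, so the zeros of LRP6 say nothing of its expression.

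The receptors that act outside the FZD and LRP5 pair were lower. RYK, a WNT receptor with an inactive kinase domain, measured 17.0 FPKM in PIM3_KO and 31.0 FPKM in HuH6_WT, a ratio of 0.549 (0.510 to 0.591). ROR1, an oncofetal receptor for WNT5 ligands, measured 1.28 FPKM in PIM3_KO and 2.15 FPKM in HuH6_WT, a ratio of 0.595 (0.488 to 0.717). ROR2 was near the floor at 0.0321 FPKM in PIM3_KO and 0.153 FPKM in HuH6_WT, about 3 and 17 reads.

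Among SFRP1, SFRP2, SFRP4, SFRP5 and DKK1 to DKK3, DKK3, a divergent member of the Dickkopf family, was the 1 measured gene. DKK3 measured 16.6 FPKM in PIM3_KO and 28.9 FPKM in HuH6_WT, a ratio of 0.575 (0.531 to 0.623) and a log2 ratio of -0.76. DKK1, which blocks LRP5 and LRP6, was listed at 0 in PIM3_KO and stood at 0.132 FPKM in HuH6_WT, about 6 reads. DKK2, SFRP1, SFRP2 and SFRP4 were listed at 0 in both libraries. SFRP5 had about 2 reads in each.

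All 3 Dishevelled genes were lower in PIM3_KO. DVL1 measured 75.3 FPKM in PIM3_KO and 89.4 FPKM in HuH6_WT. DVL2 measured 17.8 and 25.8 FPKM in the same order. DVL3 measured 20.8 and 34.9 FPKM. Their ratios were 0.842 (0.811 to 0.874), 0.689 (0.640 to 0.741) and 0.597 (0.568 to 0.627), with intervals for counting error only. The 3 log2 ratios, -0.25, -0.51 and -0.72, were each short of 2-fold. On the TPM scale they were -0.70, -0.96 and -1.17, the last past 2-fold. After the length correction they were -0.21, -0.47 and -0.50, which left DVL2 and DVL3 close to each other. DVL1 made up 66.1% of the family's FPKM in PIM3_KO and 59.5% in HuH6_WT.

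In the destruction complex the kinase and the scaffold differed from beta-catenin in direction or size. GSK3B, which phosphorylates beta-catenin, measured 27.2 FPKM in PIM3_KO and 18.7 FPKM in HuH6_WT, a ratio of 1.46 (1.32 to 1.61) and a log2 ratio of 0.52, or 0.08 on the TPM scale. AXIN1, the scaffold, measured 11.6 FPKM in PIM3_KO and 12.1 FPKM in HuH6_WT, a ratio of 0.959 (0.878 to 1.05). APC and GSK3A had no row of their own in the table. APC was joined with SRP19 and AC008575.1 in a locus of 95.01 FPKM in PIM3_KO and 78.80 FPKM in HuH6_WT, and GSK3A with ERF and AC006486.1 in a locus of 49.9 and 92.2 FPKM. How much of either value belongs to APC or GSK3A cannot be told.

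CTNNB1 (chromosome 3, 41194741 to 41260096, plus strand) had a ratio of 0.430 (0.422 to 0.440) on about 11842 and 35071 estimated reads, and 2.64% of all measured genes had a lower log2 ratio. The log2 ratio was -1.21, or -1.67 on the TPM scale and -1.005 after the length correction. CTNNB1 stood at 10.1 times the FPKM of AXIN1 in PIM3_KO and 22.6 times in HuH6_WT, and at 4.32 and 14.6 times that of GSK3B. TCF7L2, the more abundant of the TCF7L factors, measured 24.1 FPKM in PIM3_KO and 31.7 FPKM in HuH6_WT, a ratio of 0.760 (0.718 to 0.804). TCF7L1, known chiefly as a repressor, measured 1.05 FPKM in PIM3_KO and 1.81 FPKM in HuH6_WT, a ratio of 0.581 (0.428 to 0.788). Both factors were short of 2-fold, with log2 ratios of -0.38 and -0.45. These RNA levels say nothing of the amount of beta-catenin protein.

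Position moved with some of these ratios. CTNNB1, RYK, DVL3 and GSK3B all lie on chromosome 3, where the median log2 ratio over 553 measured coding genes was -0.29. Among the 20 measured coding genes nearest to CTNNB1, 10 on each side, 15 had a log2 ratio below 0 and the median was -0.25, so CTNNB1 lay 0.96 below its neighbours. The neighbours of RYK had a median of -0.60 and those of DVL3 -0.20. GSK3B went against its neighbours, 15 of 20 of which were below 0, with a median of -0.28. Neighbours of DKK3, WLS, ROR1 and FZD9 also had negative medians, from -0.50 to -0.41. For FZD6, 14 of 20 neighbours were below 0, with a median of -0.21. FZD3, DVL2 and WNT6 lay beside neighbours with medians of 0.08, 0.28 and 0.12. The neighbours of PORCN and LRP5 had medians of 0.35 and 0.26. Those of AXIN1 had the highest median of all, 0.48, with 1 of 19 below 0, and AXIN1 lay 0.53 below it. Across the 23 genes, 13 lay below the median of their neighbours, and the part of chromosomal position in the ratios was not tested.

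**Figure D4:**
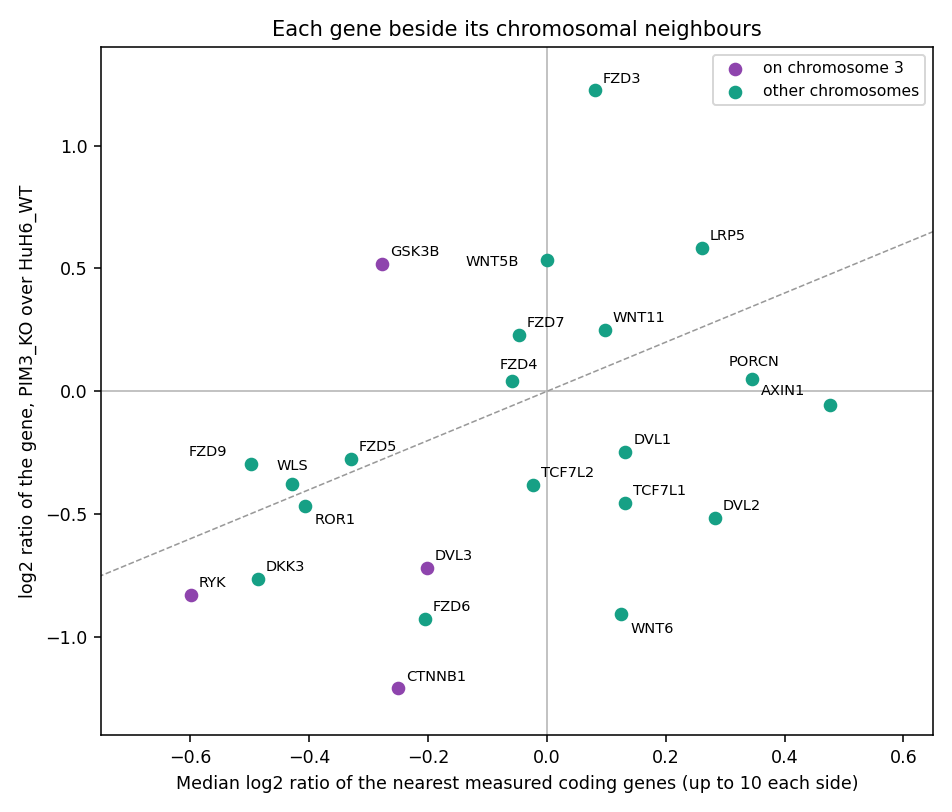
Log2 ratio of each of the 23 measured genes (vertical axis) against the median log2 ratio of its nearest measured coding genes, up to 10 on each side (horizontal axis), with genes on chromosome 3 in purple and a dashed line of equality. CTNNB1 lies 0.96 below its neighbours' median of -0.25, GSK3B lies above the line among lower neighbours, and RYK lies at the left beside neighbours with a median of -0.60.

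Other genes of the pathway leaned the same way. The 6 lists held 125 genes, of which 110 had a row of their own and 83 were measured. RNF43 and AXIN2 were among those without such a row, so their levels are not known here. Of the 83, 61 had a log2 ratio below 0 (73.5%), 11 were at least 2-fold lower (13.3%) and 1 was at least 2-fold higher. The background was 49%, 4.59% and 6.89%. On the TPM scale 26 of the 83 were at least 2-fold lower (31.3%) and 0 at least 2-fold higher, against a background of 14.5% and 2.73%. Several of these genes are known targets of beta-catenin and were already known to be lower in these libraries when the lists were made, so the counts are no independent evidence. The median was -0.36, or -0.81 on the TPM scale and -0.24 after the length correction.

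Across the 6 lists the lowest log2 ratios belonged to APCDD1 and NKD1, both feedback inhibitors of the pathway. Of the 20 coding genes nearest to APCDD1, 19 were below 0 with a median of -0.72, against 10 of 20 and a median of -0.03 for NKD1. All 3 measured genes of the R-spondin and receptor turnover list were below 0, with ZNRF3, a ligase that removes Frizzled receptors, at 9.09 FPKM in PIM3_KO and 23.0 FPKM in HuH6_WT, and LGR5 highest at a log2 ratio of -0.19. Among 8 secreted and membrane modulators, 4 were below 0, and APCDD1, NOTUM and KREMEN1 were at least 2-fold lower. KREMEN1, a co-receptor for Dickkopf proteins, measured 3.01 FPKM in PIM3_KO and 8.86 FPKM in HuH6_WT. KREMEN1 and ZNRF3 lie close together on chromosome 22. For each, 8 of the 20 nearest coding genes were below 0, with a median of 0.15. APCDD1 had the lowest log2 ratio of that list at -1.93 and DKK4 the highest at 0.98. Among 19 cytoplasmic partners 15 were below 0, from the DVL-binding NKD1 at -1.93 to the phosphatase scaffold PPP2R1A at 0.63.

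Nuclear partners differed from one another. Of 24 measured, 17 were below 0, with EP300, LEF1 and TBL1XR1 at least 2-fold lower and SMARCA4 at least 2-fold higher. The acetyltransferase EP300 measured 3.46 FPKM in PIM3_KO and 13.1 FPKM in HuH6_WT, while its homolog CREBBP lay at 13.1 and 13.9 FPKM. LEF1, a TCF family factor, measured 0.552 FPKM in PIM3_KO and 3.08 FPKM in HuH6_WT. The remodelling ATPase SMARCA4 measured 191 FPKM in PIM3_KO and 91.7 FPKM in HuH6_WT, a log2 ratio of 1.05 that became 0.59 on the TPM scale. TBL1XR1, a corepressor subunit, measured 15.0 FPKM in PIM3_KO and 35.0 FPKM in HuH6_WT, and its neighbours on chromosome 3 had a median of -0.45.

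The branches outside beta-catenin also held mixed members. Of 21 planar polarity and calcium branch genes 15 were below 0, with the kinase MAPK8 at 12.6 FPKM in PIM3_KO and 35.4 FPKM in HuH6_WT, ANKRD6 at 4.43 and 11.2 FPKM, and the GTPase RAC1 highest at 354 and 179 FPKM. Of 8 genes of cell junctions and adhesion, 7 were below 0. ITGB1, an integrin beta chain, was lowest at 42.1 FPKM in PIM3_KO and 122 FPKM in HuH6_WT. PKP3 was highest, at 48.3 and 35.0 FPKM.

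**Figure D5:**
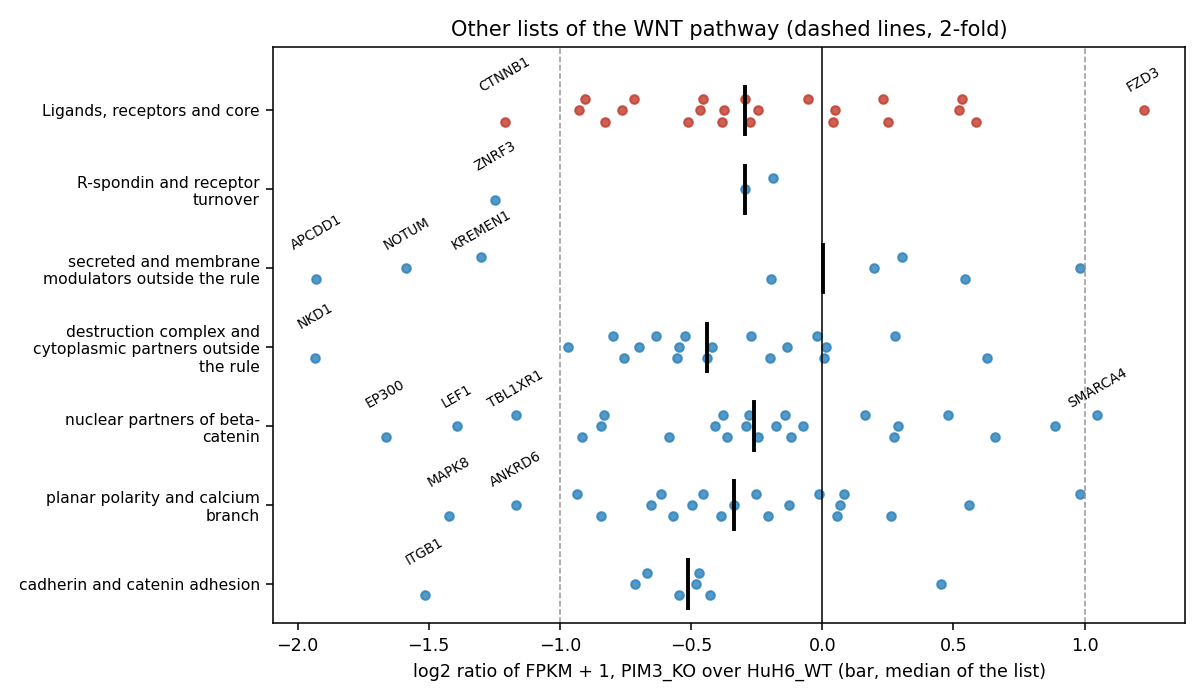
Log2 ratio of FPKM + 1, PIM3_KO over HuH6_WT, for the measured ligands, receptors and core genes (red) and for 6 other lists of the pathway (blue), 1 point per gene, with a black bar at the median of each list and names beside genes past 2-fold. The list medians run from -0.51 for adhesion genes to 0.00 for secreted and membrane modulators, and SMARCA4 and FZD3 are the genes past 2-fold on the higher side.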

How the data were processed

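RNA of PIM3_KO and HuH6_WT cells was measured in 1 library each. Per the labels' protocols, the libraries were directional, made from poly(A) RNA and sequenced from 1 end for 75 bp. STAR 2.7.3a and Cufflinks 2.2.1, with bcl2fastq 2.18.0.12 and the GRCh38 build, are listed in the submitters' processing notes. No source used here states the annotation release or strand setting. Per the file headers, values are FPKM as the authors deposited them.

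Counts over genes used the 53139 symbols that had 1 row and no part in any of 1736 joined loci. Log2 ratios used a pseudocount of 1 FPKM and a mean of at least 1 FPKM. Members, lists and the naming rule (all measured members, others reaching 0.3 FPKM, and of each list the genes past 2-fold, the highest and the lowest) were chosen with earlier results of these data known. ERF, SRP19, CREBBP, RPL7A and RPS18 were named after their values were seen, as were members under 0.3 FPKM.

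Lengths and positions came from GENCODE 29, with 1 transcript per gene, the longest marked principal for coding genes. In single-exon genes of 600 to 5000 bp, FPKM times length less 200 bp came in steps, and 96.6% (PIM3_KO) and 96.4% (HuH6_WT) of values under 20 reads lay within 0.05 of a whole number. Reads of other genes are approximate. Intervals are exact 95% binomial (Clopper-Pearson) ones on estimated reads and cover counting error only. Several members, among them CTNNB1, FZD4, FZD6, GSK3B, ROR1, WLS, WNT5B and WNT11, overlap a gene on the opposite strand, and reads of the partners cannot be told apart without the strand setting. The length correction was a lowess of fraction 0.3. Alternatives were pseudocounts of 0.1 and 5, no filter, a mean of at least 5 FPKM, TPM, centring, the length correction and summing rows of a symbol. The code was tested on simulated data. Python 3.11.15, pandas 2.3.3, scipy 1.17.1 and statsmodels 0.14.6 were used.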

Additional observations from a re-analysis of the deposited data

How the results depend on the processing

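Of the 8 alternatives, TPM moved the count of lower genes most. On that scale 6 genes were at least 2-fold lower (background 14.5%) and 0 at least 2-fold higher (background 2.73%). The median log2 ratio of the members was -0.69, against -0.40 for all genes. Relative to all genes the members thus moved little, with a difference in medians of -0.29, against -0.31 under the main setting. A pseudocount of 5 FPKM left 0 genes at least 2-fold higher, with FZD3 at 0.72, and a median of -0.17. A pseudocount of 0.1 FPKM gave 3 genes at least 2-fold lower (CTNNB1, FZD6 and WNT6). The share of all genes past 2-fold was not counted at either pseudocount, so these counts have no background. The length correction gave 2 (8.70%), CTNNB1 and WNT6, against 4.59% of all genes. With no filter on low values the median over 48 members was -0.012, since most added genes have log2 ratios near 0. Under the filter at 5 FPKM, centring and summed rows, both counts were as reported and the median moved by less than 0.1. CTNNB1 was at least 2-fold lower under all 8 alternatives, with log2 ratios from -1.67 to -1.005. No gene past 2-fold changed sign under any of them. No paired analysis was possible because each group had 1 library. Low genes are limited by depth, with at most 17 estimated reads for any member under 0.3 FPKM.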
